A study of Mus musculus with 16 samples.

Results

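The mRNA of 10 genes that act in the growth of new epidermis was followed in mouse skin wounds: 7 ligands of the EGF receptor (Areg, Ereg, Hbegf, Tgfa, Epgn, Btc and Egf), the receptor Egfr, the growth factor Fgf7 and its receptor gene Fgfr2. Members were every array probe whose transcript accession maps to one of these symbols through RefSeq, which gave 13 probes for 10 of the 20832 genes named on the array. Egfr had 3 probes, Fgfr2 had 2 and each of the others had 1. All 13 probes were well above background on all 16 arrays, so that all 10 genes entered every test.

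Full-thickness wounds of 4 mm were made on the back of female mice, and RNA came from one part of each bisected piece of wound with its surrounding skin, the other part being kept for histology. The WT group were C57BL/6J mice aged 10 to 12 weeks with no treatment. The db/db group were C57BLKS/J Iar-+Lepr db/+Lepr db mice aged 10 weeks, homozygous for the db mutation of the leptin receptor gene, also with no treatment. The db/db + estrogen group were the same db/db mice, whose wounds received estradiol benzoate daily (0.75 μg/g, in sesame oil). Sesame oil without the hormone was put on the wounds of the db/db + vehicle group. There were 2 arrays of every group for day 7 and 2 for day 14 as labelled. WT and db/db mice differ in strain as well as at the leptin receptor, and these cannot be told apart.

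Epidermal wounds close when keratinocytes at the edge loosen, divide and move over the wound bed. The EGF receptor ligands are made as membrane proteins, are cut free by ADAM proteases and act on the keratinocytes that make them and on their neighbours. FGF7, also called keratinocyte growth factor, is made by dermal fibroblasts and acts on the epidermis through the epithelial form of FGFR2. Amphiregulin, epiregulin, HB-EGF, TGF-α, epigen, betacellulin and EGF are the products of the 7 ligand genes in the order given above.

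The day labels need care. The paper's tables give db/db-over-WT ratios by day. Of 14 ratios compared, 14 were found within 1% on the arrays with the other day label and 0 on the arrays with the same label. Days are therefore given here as labelled, and no order in time is drawn from them. Levels below are log2 ratios of the signal to the 75th percentile of its array, a value that ran from 1091 to 2548. This percentile was lowest on WT replicate 2 of labelled day 14, against 2383 on replicate 1 of the same group. The arrays sat on 4 slides. Slides 1 and 2 each held all 4 groups labelled day 7, whereas both db/db arrays labelled day 14 were on slide 3 and both WT arrays on slide 4. All arrays of one labelled day were scanned on one day, so that labelled day and scan day cannot be told apart. The labels do not say that the arrays of a group came from separate mice, and p-values measure only the spread between these arrays. In the db/db + estrogen arrays labelled day 7, the summed level of 8 neutrophil markers was 50.05 to 64.9 times the 75th percentile, against 271.6 to 515.6 on the other 14 arrays, with 2 of the 3 defining markers (S100a8, S100a9 and Ngp) well above background on both. These 2 arrays were also the lowest for keratinocyte genes of the wound edge. The WT arrays labelled day 7 likewise had 2 of the 3 defining neutrophil markers well above background on both. A sum of signals is weighted to its brightest genes. For labelled day 7 the neutrophil sum was 350.3 to 391.7 in WT and 437.2 to 515.6 in db/db, whereas the median log2 difference of the 8 genes was 4.30. Of these genes, 5 were called higher in db/db and 0 lower, against 6.31% and 7.93% of all genes.

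Promoter sequence is shown for Areg and Epgn, because these were the members called lower in db/db than in WT on the arrays labelled day 14. The genes Epgn, Ereg, Areg and Btc follow each other in this order among the protein-coding genes of chromosome 5 in RefSeq. The sequences are the 250 bases before the RefSeq start on the plus strand of GRCm38.p6, with the cAMP response element TGACGTCA and the TATA box TATAAA in capitals.
Areg, chr5:91139349-91139598: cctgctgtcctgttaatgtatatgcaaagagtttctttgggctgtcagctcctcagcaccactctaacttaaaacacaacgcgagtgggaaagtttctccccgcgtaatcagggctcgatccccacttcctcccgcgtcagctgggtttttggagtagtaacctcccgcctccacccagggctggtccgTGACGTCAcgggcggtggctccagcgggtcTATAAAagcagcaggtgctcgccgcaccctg
Epgn, chr5:91027267-91027516: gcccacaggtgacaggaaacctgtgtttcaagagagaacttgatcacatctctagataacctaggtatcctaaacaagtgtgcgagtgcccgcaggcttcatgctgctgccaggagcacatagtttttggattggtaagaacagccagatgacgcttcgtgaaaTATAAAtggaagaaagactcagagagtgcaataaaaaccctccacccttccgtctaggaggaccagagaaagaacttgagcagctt
Promoters of 8 members were searched, and those of Ereg and Hbegf were not analysed here. Both strands were searched for 4 motifs. The cAMP response element lay at −61 to −54 from the start of Areg and in no other member promoter, and 1.55% of all 32851 promoters hold it. A TATA box lay at −31 to −26 of Areg and at −86 to −81 of Epgn, and 12.4% of all promoters hold one on either strand. The AP-1 motif TGANTCA, held by 6.75% of all promoters, and the estrogen response element (GGTCA and TGACC with 3 bases of any kind between), held by 0.0639%, were in none of the 8. These are matches of letters within the windows and not measured binding.

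A gene was called where the two-sided limma p was under 0.05 without adjustment and the fold change was above 2, which are the thresholds of the study. Adjusted p-values are from the same limma fit with Benjamini-Hochberg adjustment over all probes tested. Between db/db and WT, 2 of 10 members were called for labelled day 7 (Areg lower, Fgf7 higher), against 14.2% of all genes tested. For labelled day 14, 2 of 10 were called (Areg and Epgn lower), against 12.8%. Between db/db + estrogen and db/db, 2 of 10 were called for labelled day 7 (Areg and Hbegf lower), against 10.9%, and 1 of 10 for labelled day 14 (Areg higher), against 4.13%. Between db/db + vehicle and db/db, 1 of 10 was called for labelled day 7 (Fgf7 lower), against 5.63%, and 0 of 10 for labelled day 14, against 8.09%. With estrogen against vehicle in db/db mice, 2 of 10 were called for labelled day 7 (Hbegf and Tgfa lower), against 9.58%, and 0 of 10 for labelled day 14, against 1.08%. With 10 members, 1 gene is 10 percentage points, so that these shares cannot be read more finely than that. By the unadjusted limma p alone, with no fold threshold, Fgfr2 (0.50) passed between vehicle and db/db for labelled day 14, and no member did between estrogen and vehicle, each read through its brightest probe. The median log2 fold change of the 10 members between estrogen and db/db for labelled day 7 was −0.71, beside 0.040 for all genes.

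**Figure D1:**
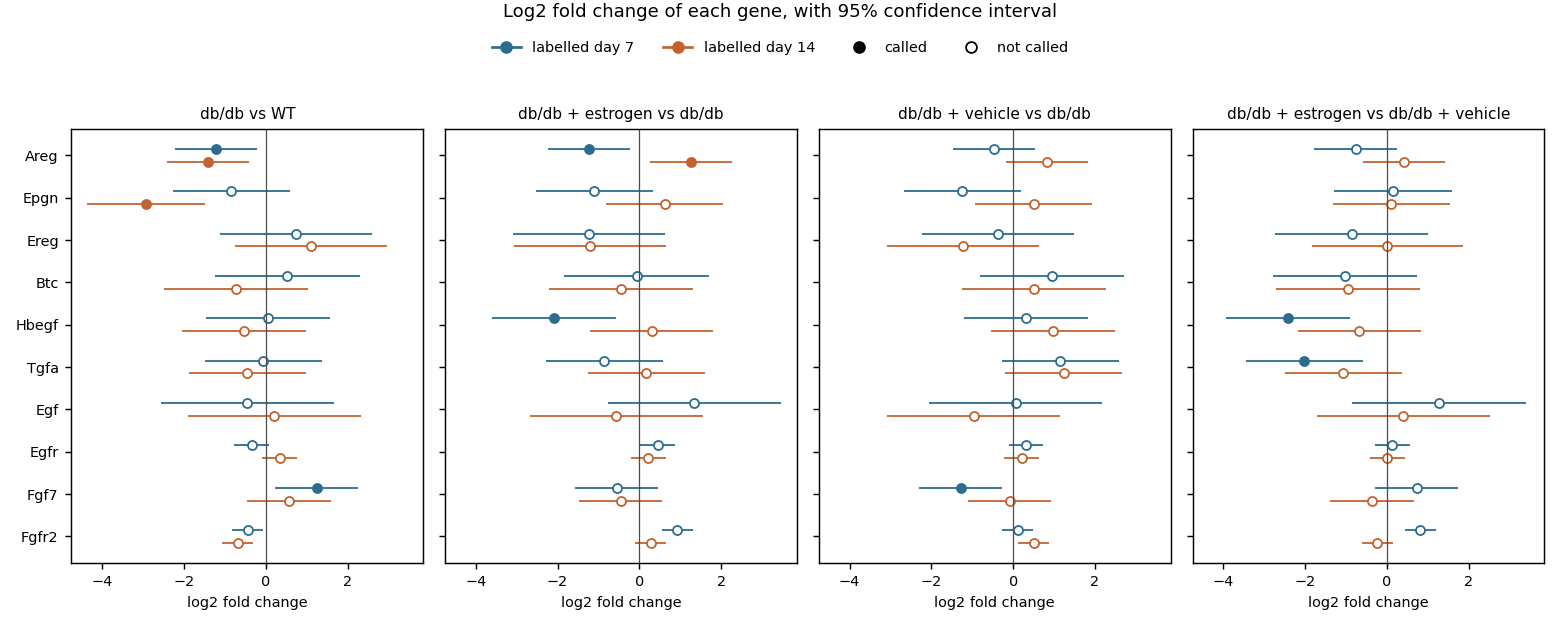
Log2 fold change (x axis) of each of the 10 genes (y axis) in 4 comparisons, with the 95% confidence interval from limma (n = 2 arrays per group). Filled points were called. Areg lies below 0 in db/db against WT on both labelled days and changes side with estrogen against db/db, from −1.24 to 1.25.

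Areg, the gene of amphiregulin, was lower in db/db than in WT wounds on both labelled days, and the estrogen group had the lowest mean of the 4 groups for labelled day 7 and the second highest for labelled day 14. For labelled day 7, the WT arrays read −1.14 and 0.022, the db/db arrays −1.63 and −1.92, the vehicle arrays −2.23 and −2.26, and the estrogen arrays −2.71 and −3.31. The 4 groups did not overlap. For labelled day 14, the WT arrays read −0.47 and 0.31, the db/db arrays −1.90 and −1.09, the estrogen arrays 0.20 and −0.70, and the vehicle arrays −0.52 and −0.82. There the db/db arrays were below all others. The estrogen arrays overlapped both WT and vehicle, whereas WT lay above vehicle. In bulk wound tissue, fewer cells of a type and less RNA per cell cannot be told apart.

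Against WT, Areg in db/db was 2.32-fold lower for labelled day 7 (log2 −1.21, SE 0.45, adjusted p = 0.0977) and 2.67-fold lower for labelled day 14 (−1.42, SE 0.45, adjusted p = 0.0493). The former call was lost without WT replicate 2 (−0.63) and without db/db replicate 2 (−1.07), and it was −0.49 within slide 1 and −1.94 within slide 2. The latter was lost without db/db replicate 1 (−1.01) and without WT replicate 2 (−1.03), and it read −2.01 with slide as a block, a fit in which the vehicle and estrogen arrays link slides 3 and 4. With estrogen against db/db, Areg was 2.36-fold lower for labelled day 7 (−1.24, SE 0.45, adjusted p = 0.144), whereas on the arrays labelled day 14 it was 2.38-fold higher (1.25, SE 0.45, adjusted p = 0.381). The call for labelled day 7 was lost without db/db replicate 1 (−1.09) and without estrogen replicate 2 (−0.94). The call for labelled day 14 was lost without db/db replicate 1 (0.85) and without estrogen replicate 1 (0.80). Against the vehicle the estrogen group differed by −0.77 (95% interval −1.77 to 0.24) and 0.42 (−0.58 to 1.43), and neither passed. The change of the difference between estrogen and db/db from labelled day 7 to 14 was 2.49 (SE 0.64, adjusted p = 0.188). It was called with every array left out in turn, between 2.04 and 2.94. The same change was 1.3 for vehicle against db/db (SE 0.64, adjusted p = 0.906) and 1.19 for estrogen against vehicle (SE 0.64, adjusted p = 0.504), and neither was called. In that test of differences 2 of 10 members were called, Areg and Hbegf, against 6.75% of all genes.

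From labelled day 7 to 14, Areg was 6.79-fold higher in the estrogen group (2.76, SE 0.45, adjusted p = 0.0069) and 2.98-fold higher in the vehicle group (1.57, SE 0.45, adjusted p = 0.0474). It differed by 0.48 in WT and 0.27 in db/db, which did not pass. Areg followed most closely Pax9 (r = 0.89 over 16 arrays), Qsox1 (0.89) and Efl1 (0.89). Across the 16 arrays it ran against the summed level of 5 mast cell markers (r = −0.86, Spearman −0.87, and −0.89 without the 2 arrays farthest from the median), whose part was not tested. That list was 28.0 to 30.1 in the estrogen arrays labelled day 7 and 3.97 to 30.8 on the others, with its 3 defining markers (Cpa3, Cma1 and Mcpt4) well above background in every group. All such correlations are descriptions over the same 16 arrays, in which both measures come from one hybridisation, and likeness was ranked over 16871 genes.

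**Figure D2:**
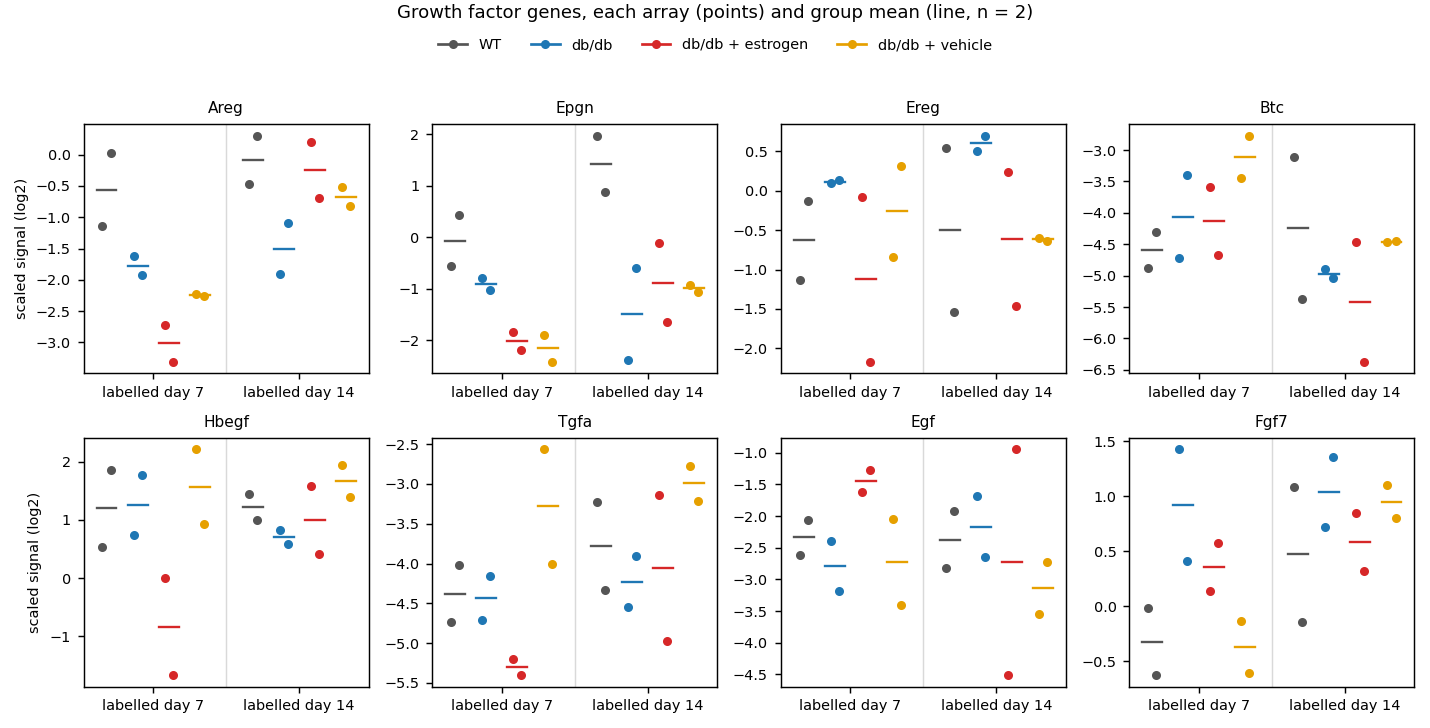
Scaled signal (y axis, log2 ratio to the 75th percentile of the array) of 8 growth factor genes by group, in colour, and labelled day (x axis), with a point for each array and a line at the mean of 2. WT arrays labelled day 14 lie highest for Epgn, at 0.87 and 1.98, and the estrogen arrays labelled day 7 lie lowest for Areg, Hbegf and Tgfa.

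Epgn, the gene of epigen, was highest in WT wounds. The WT arrays read −0.56 and 0.43 for labelled day 7 and 1.98 and 0.87 for labelled day 14. The db/db arrays read −0.79 and −1.03, then −2.38 and −0.60. The estrogen arrays read −1.83 and −2.19, then −0.11 and −1.65, and the vehicle arrays −1.89 and −2.42, then −0.92 and −1.06. Every array of the 3 db/db groups was thus below the WT arrays of its own labelled day. Epgn in db/db wounds labelled day 14 was 7.57-fold lower than in WT (−2.92, SE 0.65, adjusted p = 0.0122). This call was kept under all 13 alternatives run, with values from −3.81 without db/db replicate 2 to −2.03 without db/db replicate 1, and it read −3.76 with slide as a block. For labelled day 7 the difference was −0.84 (95% interval −2.27 to 0.60). The difference between the labelled days was −2.08 (SE 0.91, adjusted p = 0.332), where Epgn was the only 1 of 10 members called, against 6.30% of all genes. In WT, Epgn was 2.82-fold higher for labelled day 14 than 7 (1.49, SE 0.65, adjusted p = 0.342), the 1 of 10 members called there against 4.45% of all genes. That call was lost without WT replicate 1 of labelled day 7 (1.00) or of labelled day 14 (0.94). For labelled day 14, the summed level of 8 basal keratinocyte markers was 350.9 to 358.1 in WT and 146.4 to 272.9 in db/db. All 3 defining markers (Krt5, Krt14 and Krt15) were well above background in every group. Of the 8 markers, 3 were called lower in db/db, against 1708 of all 17056 genes tested. The vehicle arrays, in which Epgn was also below WT, had a basal sum of 370.9 to 383.7, and over the 16 arrays Epgn had r = 0.21 (Spearman 0.13) with this list. The summed level of 7 macrophage markers was 85.1 to 94.1 in db/db and 40.2 to 65.8 in WT for labelled day 14. Of the 7, 4 were called higher, against 2.78% of all genes, and Epgn had r = −0.68 (Spearman −0.56) with the macrophage sum. The part of either list in the difference was not tested. Areg and Epgn had r = 0.76 across the 16 arrays, and the genes most like Epgn were Dnajc3 (0.88), Alkbh4 (0.87) and Zfp7 (0.86).

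Ereg and Btc, the genes of epiregulin and betacellulin on the same stretch of chromosome 5, were called in no comparison. Ereg ranged from −2.17 to 0.70 over the 16 arrays. Its db/db arrays were close to each other, at 0.091 and 0.13 for labelled day 7 and 0.51 and 0.70 for labelled day 14, whereas its estrogen arrays were far apart, at −0.085 and −2.17 and at 0.24 and −1.46. With SEs of 0.84 and 0.83, its estrogen differences from db/db of −1.24 and −1.21 did not pass. Closest to Ereg were Abtb2 (r = 0.89), Csf2 (0.85), the gene of the cytokine GM-CSF, and Dusp5 (0.84), a phosphatase gene induced by ERK signalling. Btc ranged from −6.37 to −2.77, the lowest in an estrogen array labelled day 14 and the highest in a vehicle array labelled day 7. Its differences in the 4 comparisons of each labelled day were all within −1.03 to 0.96, with SEs of 0.79. Closest to Btc were 1700001O22Rik (r = 0.91), Rnf227 (0.88) and Fgf22 (0.87).

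Hbegf and Tgfa were lowest in the estrogen group labelled day 7 and moved together (r = 0.81 across 16 arrays, the highest of 45 pairs of members). Their products, HB-EGF and TGF-α, are both made by keratinocytes at the wound edge. For labelled day 7, Hbegf read −0.0039 and −1.67 in the estrogen arrays, against 2.21 and 0.93 with vehicle, 0.74 and 1.77 in db/db and 0.53 and 1.86 in WT. The estrogen arrays were below all other 14 arrays of the series. Hbegf was 4.27-fold lower with estrogen than in db/db (−2.09, SE 0.68, adjusted p = 0.102) and 5.31-fold lower than with vehicle (−2.41, SE 0.68, adjusted p = 0.0754). Within slides 1 and 2 the difference from vehicle was −2.21 and −2.60, and that from db/db was −0.75 and −3.44. The call against db/db was lost without estrogen replicate 2 (−1.26) and without db/db replicate 2 (−1.58). The call against vehicle was lost without estrogen replicate 2 (−1.58) and without vehicle replicate 1 (−1.77).

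Tgfa read −5.19 and −5.41 in the estrogen arrays labelled day 7, −2.57 and −4.00 with vehicle, −4.71 and −4.16 in db/db and −4.74 and −4.01 in WT. The estrogen arrays were again the lowest of the 16. Tgfa was 4.05-fold lower with estrogen than with vehicle (−2.02, SE 0.64, adjusted p = 0.105), and differed from db/db by −0.87 (95% interval −2.30 to 0.56), which did not pass. The former call was lost without vehicle replicate 1 (−1.30), which held the highest Tgfa value of the series. With normexp background correction the value was −1.17 and still called. The estrogen arrays labelled day 14 were far apart for both genes, at 1.58 and 0.41 for Hbegf and at −3.14 and −4.98 for Tgfa, and no difference from db/db or vehicle passed. Within the estrogen group, Hbegf was 3.57-fold higher for labelled day 14 than 7 (1.83, SE 0.68, adjusted p = 0.0954). This was lost without estrogen replicate 2 of labelled day 7 (1.00) and without replicate 1 of labelled day 14 (1.25). The change of the Hbegf difference from db/db between the labelled days was 2.39 (SE 0.96, adjusted p = 0.404).

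Genes of wound-edge keratinocytes varied with Hbegf, Tgfa and Areg. Of 13 such genes, 7 were called lower and 1 higher with estrogen than in db/db for labelled day 7, with a median of −1.08. Among all genes, 5.32% were called lower and 5.62% higher in this comparison. Mmp10, the gene of a matrix protease, differed by −7.29 (SE 1.58, adjusted p = 0.0238), Sprr1b by −5.39 (SE 0.83, adjusted p = 0.00503) and the keratin gene Krt6b by −5.04 (SE 0.53, adjusted p = 0.000932). Plau, the gene of urokinase, was the 1 gene higher, by 1.33 (adjusted p = 0.0258). The summed level of the 13 genes was 46.3 to 54.4 in the estrogen arrays labelled day 7, against 203.1 to 663.3 on the other arrays, although all 3 defining markers (Krt6a, Krt6b and Krt16) were well above background in every group. By contrast, the basal keratinocyte markers summed to 342.0 to 391.0 in the estrogen arrays against 156.0 to 207.7 in db/db. With vehicle they summed to 296.1 to 340.1, also above db/db. Of the 8 neutrophil markers, 7 were called lower with estrogen than in db/db and 6 lower than with vehicle. The shares of all genes called lower there were 5.32% and 4.60%. The part of these lists in the ligand differences was not tested. Across the 16 arrays, Hbegf had r = 0.81 (Spearman 0.70) with the wound-edge sum, Tgfa 0.77 (0.82) and Areg 0.76 (0.68). Without the 2 estrogen arrays labelled day 7, which were also the 2 farthest from the median, r was 0.50 for Hbegf, 0.75 for Tgfa and 0.56 for Areg. These were among 130 such pairs computed. The genes most like Hbegf were Sprr1a (r = 0.89), Pglyrp3 (0.88) and Klk6 (0.87), and those most like Tgfa were Sc5d (0.96), Slk (0.95) and Prss22 (0.93).

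**Figure D3:**
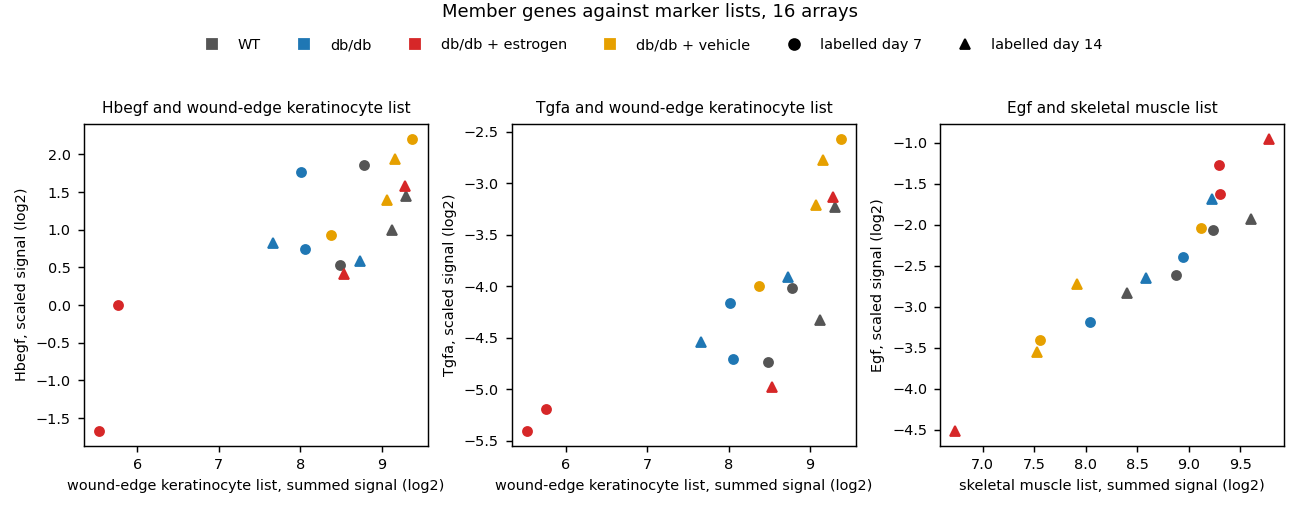
Scaled signal of Hbegf, Tgfa and Egf (y axes, log2) against the log2 summed level of a marker list (x axes) on 16 arrays, with groups in colour and labelled day 7 as circles, day 14 as triangles. For Hbegf and Tgfa the 2 estrogen arrays labelled day 7 lie apart at the lower left, whereas Egf follows the skeletal muscle list along its whole range (r = 0.95).

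Egf was called in no comparison, and its level followed skeletal muscle. It ranged from −4.52 to −0.95 over the 16 arrays, and both of these extremes were estrogen arrays labelled day 14. The summed level of 7 skeletal muscle markers was 106.6 and 877.0 in the same 2 arrays. Egf had r = 0.95 (Spearman 0.96) with this list, and 0.90 without the 2 arrays farthest from the median. The genes most like it were Acyp2 (r = 0.97), Hhatl (0.97) and Casq1 (0.97), the last the gene of the calcium store protein of skeletal muscle. For labelled day 7, the estrogen arrays (−1.63 and −1.27) were above the db/db arrays (−2.39 and −3.18), and the muscle list was 625.7 to 632.3 against 263.0 to 493.0. The difference in Egf of 1.34 (SE 0.95, adjusted p = 0.486) did not pass. All 3 defining muscle markers (Acta1, Ckm and Myh1) were well above background in every group.

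The receptor Egfr varied less than any ligand and was called in no comparison by its brightest probe. That probe ranged from 1.69 to 2.53, or 1.79-fold over all 16 arrays, and the largest of its differences in the 4 comparisons of each labelled day was 0.45 (SE 0.19, adjusted p = 0.213), between estrogen and db/db for labelled day 7. The other 2 probes of Egfr are designed to a different RefSeq transcript of the gene. One of them was lower in WT than in db/db on each labelled day. For probe A_55_P1956862, the WT arrays read −1.74 and −1.85 for labelled day 7 and −1.07 and −2.30 for labelled day 14, whereas the 12 arrays of the db/db groups lay between −1.09 and −0.54. WT and the db/db groups did not overlap within a labelled day. The db/db minus WT difference was 0.93 for labelled day 7 (SE 0.34, adjusted p = 0.0900), under the fold threshold, and 1.08 for labelled day 14 (SE 0.34, adjusted p = 0.0462), which was called. The third probe, A_55_P1956863, gave 0.23 and 0.40, and the brightest −0.34 and 0.34, so that the call rests on 1 of 3 probes. It was also lost without WT replicate 2 (0.47). The genes most like the brightest probe were Gpt2 (r = 0.89), Add3 (0.85) and Zfp385b (0.84). For the brightest probe, the change of that difference between the labelled days was 0.69 (SE 0.27, adjusted p = 0.275), under the fold threshold.

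**Figure D4:**
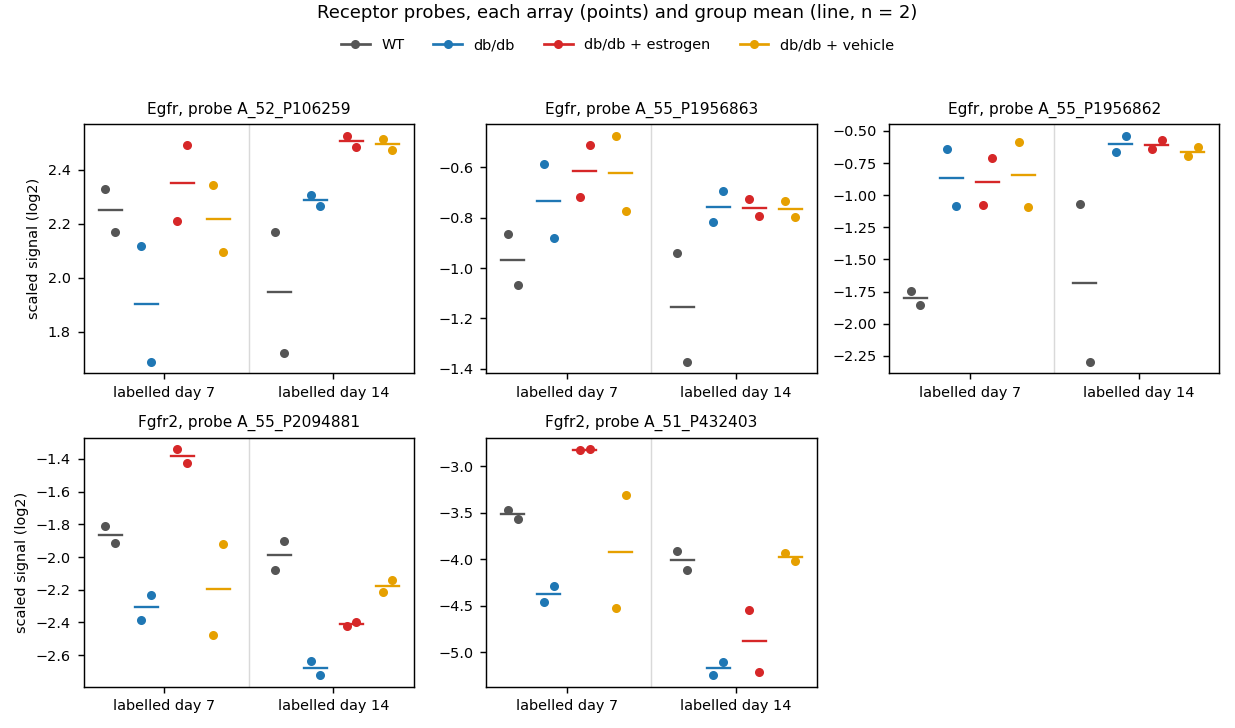
Scaled signal (y axes, log2 ratio to the 75th percentile of the array) of the 3 Egfr probes and the 2 Fgfr2 probes by group, in colour, and labelled day (x axis), with a point for each array and a line at the mean of 2. The WT arrays lie lowest within each labelled day for A_55_P1956862, and the estrogen arrays labelled day 7 lie highest for both Fgfr2 probes.

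The mean of Fgfr2 was highest in the estrogen group labelled day 7 and lowest in db/db labelled day 14, by both of its probes. By the brighter probe, the arrays labelled day 7 read −1.34 and −1.42 with estrogen, −1.81 and −1.91 in WT, −2.48 and −1.92 with vehicle and −2.38 and −2.23 in db/db. The estrogen arrays were above all others. For labelled day 14 they read −2.08 and −1.90 in WT, −2.22 and −2.14 with vehicle, −2.42 and −2.40 with estrogen and −2.63 and −2.72 in db/db, with no overlap between db/db and any other group. With estrogen, the brighter probe was 1.90-fold higher than in db/db for labelled day 7 (0.93, SE 0.17, adjusted p = 0.0116) and 1.76-fold higher than with vehicle (0.82, SE 0.17, adjusted p = 0.0312), both under the fold threshold. The dimmer probe, A_51_P432403, passed both: it differed from db/db by 1.55 (SE 0.33, adjusted p = 0.0233) and from vehicle by 1.1 (SE 0.33, adjusted p = 0.0919), the latter lost without vehicle replicate 1 (0.49). For labelled day 14, db/db differed from WT by −0.69 (adjusted p = 0.0191) on the brighter and −1.16 (adjusted p = 0.0332) on the dimmer probe, and vehicle from db/db by 0.50 (adjusted p = 0.164) and 1.20 (adjusted p = 0.114). Only the dimmer probe passed the fold threshold in these.

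Within the estrogen group, Fgfr2 was 2.04-fold lower for labelled day 14 than 7 on the brighter probe (−1.03, SE 0.17, adjusted p = 0.00706) and 4.16-fold lower on the dimmer one (−2.06, SE 0.33, adjusted p = 0.00665). The call on the brighter probe was lost with quantile normalization (−0.82) and without estrogen replicate 1 of labelled day 7 (−0.99). It was one of 3 of 10 members called there with Areg and Hbegf, against 11.9% of all genes. The estrogen difference from vehicle changed between the labelled days by −1.05 on the brighter probe (SE 0.24, adjusted p = 0.148), where Fgfr2 was the 1 of 10 members called against 7.01% of all genes, and by −2.00 on the dimmer (SE 0.47, adjusted p = 0.158). The vehicle difference from db/db changed for 0 of 10 members in limma, against 2.44% of all genes, and for 0 at the unadjusted p alone. The genes most like Fgfr2 were Epb41l4b (r = 0.93), Itprid2 (0.92) and Ctnnal1 (0.92). The files do not say which splice form of Fgfr2 the probes measure. The summed level of 9 hair follicle markers was 12.8 to 16.5 in the estrogen arrays labelled day 7, against 2.31 to 5.70 on the other arrays of the db/db groups. The WT arrays read 4.23 and 38.8 for labelled day 7 and 3.57 and 3.98 for labelled day 14. Across the 16 arrays, Fgfr2 had r = 0.61 (Spearman 0.50) with this list and 0.70 (0.70) with 8 sebaceous gland markers. Without the 2 estrogen arrays labelled day 7, r was 0.37 with the hair follicle list and 0.73 with the sebaceous gland list. The part of either list was not tested.

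Fgf7, the ligand of this receptor from the dermis, had its highest mean of labelled day 7 in db/db. The db/db arrays read 1.43 and 0.41, the estrogen arrays 0.14 and 0.58, the WT arrays −0.017 and −0.63 and the vehicle arrays −0.13 and −0.60. The db/db and WT arrays did not overlap, nor did the db/db and vehicle arrays. Fgf7 was 2.36-fold higher in db/db than in WT (1.24, SE 0.46, adjusted p = 0.0964) and 2.44-fold lower with vehicle than in db/db (−1.29, SE 0.46, adjusted p = 0.240). Both calls were lost without db/db replicate 1 (0.73 and −0.78). The former was also lost without WT replicate 2 (0.94) and the latter without vehicle replicate 2 (−1.05). Within slides 1 and 2 the former was 1.44 and 1.04 and the latter −1.56 and −1.01. With estrogen, the difference from db/db was −0.56 (95% interval −1.59 to 0.46) and that from vehicle 0.72 (−0.30 to 1.75).

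On the arrays labelled day 14, Fgf7 read 1.08 and −0.14 in WT, 0.73 and 1.36 in db/db, 0.85 and 0.32 with estrogen and 1.1 and 0.80 with vehicle. These groups overlapped, and no difference passed. In the vehicle group Fgf7 was 2.50-fold higher for labelled day 14 than 7 (1.32, SE 0.46, adjusted p = 0.0893), which was lost without vehicle replicate 2 of labelled day 7 (1.08) and replicate 1 of labelled day 14 (1.17). There 2 of 10 members were called, Areg and Fgf7, against 7.19% of all genes. In db/db, 0 of 10 members were called between the labelled days in limma, against 8.16%, and 0 had an unadjusted p under 0.05. The fibroblast marker sum was 727.5 to 739.8 in db/db, 862.6 to 979.9 in WT and 626.8 to 664.5 with vehicle for labelled day 7. This sum was higher in WT than in db/db and lower with vehicle than in db/db. Of its 8 markers, 1 was called higher and 0 lower in db/db than in WT, against 6.31% and 7.93% of all genes, with a median of −0.38. With vehicle against db/db, 0 of the 8 were called, against 5.63% of all genes, with a median of −0.48. Fgf7 was lower in both WT and vehicle than in db/db, and the part of the fibroblast list was not tested. Closest to Fgf7 were Cyp1b1 (r = 0.90), Galnt4 (0.90) and Lats2 (0.90).

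Of 2 other ERBB receptors and 3 neuregulins tested, the latter being ligands of ERBB3 and ERBB4, 1 receptor and 2 neuregulins were called for labelled day 7 when db/db was set against WT, and 1 of each for labelled day 14. Of all genes, 14.2% and 12.8% were called in these 2 comparisons. Erbb3 was lower in db/db than in WT, at −1.90 (SE 0.40, adjusted p = 0.0125) and −1.54 (SE 0.40, adjusted p = 0.0222) for labelled days 7 and 14, and Erbb2 differed by −0.87 and −0.37, which were not called. Nrg2 was lower, at −2.00 (adjusted p = 0.00688) and −1.85 (adjusted p = 0.00716). Nrg1 was higher in db/db by 1.93 for labelled day 7 (adjusted p = 0.0203), and with estrogen it was lower than in db/db, at −2.70 (SE 0.46, adjusted p = 0.00777), while Nrg2 was higher by 1.52 (adjusted p = 0.0346). Erbb3 was also called higher with estrogen than in db/db for labelled day 7, at 1.24 (adjusted p = 0.0962). Nrg4 differed by 0.064 and 0.0014 in the same comparisons for labelled day 7. With vehicle against db/db for labelled day 7, 1 of the 2 receptors was called higher and 1 of the 3 neuregulins lower, against 3.13% and 2.49% of all genes. Estrogen against vehicle gave 0 receptors called, and 1 neuregulin called higher and 0 lower, where 4.98% of all genes were higher and 4.60% lower. Nrg3 and Erbb4 did not pass the filter on dim probes.

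Of 9 genes of ligand shedding, the protease genes Adam8 and Adam9 exceeded WT in db/db wounds labelled day 7, by 1.87 (adjusted p = 0.00294) and 1.15 (adjusted p = 0.00258). Adam8 was also higher for labelled day 14, by 1.02 (adjusted p = 0.0286). Timp3, which encodes an inhibitor of metalloproteases such as ADAM17, was higher with estrogen for labelled day 7 than in db/db by 1.89 (SE 0.34, adjusted p = 0.0106) and than with vehicle by 2.48 (SE 0.34, adjusted p = 0.00667). The latter was the 1 of 9 called against vehicle, beside 9.58% of all genes. Of 13 inhibitors of EGFR and related receptors, Lrig1, which lowers EGFR at the cell surface, was lower in db/db than in WT, at −1.17 (adjusted p = 0.00219) for labelled day 7, higher with estrogen than in db/db by 1.12 (adjusted p = 0.00423), and higher than with vehicle by 1.03 (adjusted p = 0.0110), where Spry2 was the other called, at 1.07 (adjusted p = 0.0261). Lrig3 was lower in db/db for labelled day 7, at −1.05 (adjusted p = 0.0154), and the 11 others were not called between db/db and WT for that day, when 14.2% of all genes were called. Errfi1, a feedback inhibitor, was the 1 of 13 called higher in db/db for labelled day 14, by 1.24 (adjusted p = 0.0426), against 2.78% of all genes.

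Of 14 tested genes that respond to ERK signalling, which lies below these receptors, 5 were called higher and 0 lower in db/db wounds labelled day 14 than in WT, against 2.78% of all genes higher, with a median of 0.97 beside −0.041 for all genes. Fosb differed by 4.88 (SE 0.73, adjusted p = 0.00222), Fos by 2.58 (SE 0.51, adjusted p = 0.00764) and Egr1 by 1.53 (SE 0.38, adjusted p = 0.0188). On the same arrays Areg and Epgn were lower. Between estrogen and db/db for labelled day 14, 6 of 14 were called lower, against 1.71% of all genes, and none passed adjustment (adjusted p from 0.130 to 0.445). Vehicle against db/db gave 2 of 14 lower, against 2.80% of all genes, with a median of −0.42 beside −0.57 for estrogen. Estrogen against vehicle gave 0 of 14 called, beside 1.08% of all genes. For labelled day 7, 2 of 14 were higher and 1 lower in db/db than in WT, against 6.31% and 7.93% of all genes. Ier3 was the 1 called with estrogen against db/db for that day, at −2.02 (SE 0.42, adjusted p = 0.0202), beside 10.9% of all genes.

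Of 8 other FGF genes, Fgf9 in db/db exceeded WT by 1.34 for labelled day 7 (adjusted p = 0.0481) and Fgf21 for labelled day 14 by 1.03 (adjusted p = 0.0347). Each was the 1 of 8 called, against 14.2% and 12.8% of all genes, so that these counts are near the share of all genes. Fgf10, which like FGF7 acts through the epithelial form of FGFR2, was lower, at −2.07 (SE 0.52, adjusted p = 0.0293) for labelled day 14 than 7 in the estrogen group. Of the 4 other FGF receptors, Fgfr3 was lower in db/db than in WT, at −1.27 (adjusted p = 0.0468) for labelled day 7, and Fgfr1, Fgfr4 and Fgfrl1 were not called, at 0.089, −0.11 and 0.50. Of 8 genes that bind FGFs or their receptors, Fgfbp3 was the 1 called there, at −1.01 (adjusted p = 0.00531), against 14.2% of all genes.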

How the data were processed

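Members, gene lists and tests were chosen with earlier results of these data known. The authors deposited scanner files with an intensity for each spot, the processed signal of Feature Extraction 11.0.1.1 per the labels, and a series matrix with a ratio for each probe. That ratio equalled the deposited intensity over the array's 75th percentile within 1% for at least 99.856% of 34643 probes per array. Column medians of the ratio ran from 0.139 to 0.182.

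Outlier spots were left out, spots of one probe averaged, and the log2 of the intensity minus that of the 75th percentile over 39429 non-control probes was used. RefSeq named 27427 probes (69.6%). A gene was read through its probe with the highest mean over 16 arrays, and other probes are named as such. limma 3.58.1 (R 4.3.3) was fitted with 1 coefficient for each of 8 groups and 8 residual degrees of freedom, on probes that both arrays of a group in the comparison showed well above background. With 2 arrays against 2, an exact permutation test cannot go below 0.333. No spot was saturated. Precision is limited by the number of arrays. The fit was tested on simulated data. Named genes were all 10 members with every probe, the genes of each list of at most 4 genes, up to 3 genes per longer list with adjusted p below 0.05 and a fold change above 2, and the 3 genes with the highest Pearson r to each member. Lists were written from general knowledge. Results were recomputed with normexp (offset 50), quantile normalization, other filters, the deposited ratios, the 4 arrays alone, Benjamini-Hochberg adjustment, any probe, slide and replicate blocks (statmod 1.5.0) and each array left out.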

Additional observations from a re-analysis of the deposited data

Results flagged for a closer look

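For 4 members, a difference between groups changed between the labelled days by the unadjusted limma p together with the fold threshold. None passed Benjamini-Hochberg adjustment in limma. The difference for Areg with estrogen against db/db was 2.49 on the log2 scale (adjusted p = 0.188), and it was called with each of the 8 arrays left out. For Hbegf in the same comparison it was 2.39 (adjusted p = 0.404), and the call was lost without either db/db array labelled day 14 (2.51 and 2.27), db/db replicate 2 (1.88) or estrogen replicate 2 (1.56) of labelled day 7, or estrogen replicate 1 of labelled day 14 (1.80). For Epgn in db/db against WT it was −2.08 (adjusted p = 0.332), lost with 5 of 8 arrays left out, between −2.20 and −1.19, and with the replicate block. For Fgfr2 with estrogen against vehicle it was −1.05 (adjusted p = 0.148), lost without vehicle replicate 1 of labelled day 7 (−0.77) and with normexp (−0.85). Groups of 2 arrays are too small for a test of single outlying samples.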

How the results depend on the processing

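Of 20 member calls, 199 of 252 alternative values kept the call, 53 lost it and 0 reversed. The 4 calls kept throughout were Epgn in db/db against WT for labelled day 14, Areg between the labelled days with estrogen and with vehicle, and the change of the Areg difference between estrogen and db/db, the last not counting adjustment, which was not among its alternatives, all of them chosen after seeing the data. Counts of members called moved as follows. Except for adjustment, the share of all genes under each setting is not given here, so a moved count cannot be told from a general change in calls. Alone with their 4 arrays, db/db against WT (labelled day 7) gave 1, estrogen against db/db 4 (day 7) and 0 (day 14), vehicle against db/db 2 on each labelled day, and the vehicle day comparison 4. After Benjamini-Hochberg adjustment, all 4 comparisons of labelled day 7 gave 0, as did estrogen against db/db (day 14) and the WT day comparison, and the vehicle day comparison gave 1. With any probe counted, db/db against WT (day 14) gave 4 and vehicle against db/db (day 14) 1. With slide as a fixed block, vehicle against db/db (day 14) gave 2. Same-numbered arrays of different groups deviated together with r from −0.31 to 0.39 (day 7) and from −0.45 to 0.32 (day 14). For labelled day 7 the number goes with the slide, replicate 1 on slide 1 and replicate 2 on slide 2. Whether same-numbered arrays share anything further cannot be told from these values. With the replicate block, the WT day comparison gave 0, no other count moved by over 1.5 times, and the Epgn difference between the labelled days (db/db against WT, −2.08) lost its call. With each array left out, db/db against WT ran from 0 to 2 (day 7) and from 1 to 4 (day 14), estrogen against db/db from 0 to 3 (day 7) and from 0 to 2 (day 14), vehicle against db/db from 0 to 1 on each labelled day, estrogen against vehicle from 0 to 3 (day 7) and from 0 to 2 (day 14), and the day comparisons from 0 to 2 in WT, 2 to 6 with estrogen and 1 to 2 with vehicle. For the scalings, the median log2 fold change was taken over another set of probes than the 1 probe a gene used above. In db/db against WT it moved by over 0.1 between scalings. For day 7 it went from −0.048 to −0.19 with normexp and to 0.044 with quantile normalization. For day 14 it went from −0.12 to −0.18 and to 0.071. This median moved by over 0.1 in each day comparison too, in db/db from −0.093 to 0.060 with quantile normalization. Leaving out arrays for the calls on other probes of Egfr and Fgfr2 was chosen after seeing the data. The cause of these changes was not tested.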
